A study of Rattus norvegicus with 30 samples.

Results

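Transcript levels in the amygdala of adult female rats that reacted strongly to a predator's scent were compared with those of unexposed females. The arrays were chosen by their labels: a rat identifier that starts with F, and the class of extreme behavioural response (5 rats) or control (5 rats), 10 of the 30 arrays of the series. All rats were adult Sprague Dawley animals. The extreme females had been exposed to predator-scent-stress and afterwards showed an extreme behavioural response. Females of the series with a minimal response (5 rats) had the same exposure. The control females had no stress exposure but went through the behavioural tests as well. The series also holds 5 males in each of these classes. Each array carries its own rat identifier, so replicates were separate animals. The sources used here do not give the time between exposure and dissection, the cycle stage of the females, or the slide of each array.

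The amygdala is a group of nuclei in the temporal lobe that attaches threat to sensory cues and drives the hormonal and behavioural response to danger. Stress releases corticosterone, which enters neurons and glia and binds the glucocorticoid receptor (gene Nr3c1) and the mineralocorticoid receptor (gene Nr3c2). The bound receptors enter the nucleus and act at DNA elements or through other factors, including NF-kappaB and AP-1. Strong neuronal activity and cyclic AMP act through the factor CREB at another element, and induce immediate early genes and some secretory peptides.

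The arrays were Illumina BeadChips and the values are the deposited log2 intensities, which lie between 6.38 and 15.06 with a median of 7.02 on each array. Of 22523 probes, 13308 were above the array median on at least 5 of the 30 arrays and were tested, and 9358 of them carry a gene symbol. A gene passed when its adjusted p in a limma fit over all 30 arrays was under 0.05. Fold changes are log2 differences, extreme minus control, given ± the standard error (SE). Precision is limited by having 5 arrays in a group, and the SE pools the spread of all 6 groups. Thalamic marker means lay between -0.60 and -0.34 on the male arrays and between -0.50 and 2.05 on the female arrays. The pooled SE can thus be too small for genes that vary with region between females. A fit of the female arrays alone called 327 probes, against 869 in the main fit. Of the 85 genes followed by name, 39 lost their calls in it.

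Marker genes of regions around the amygdala differed between rats within both groups. The mean log2 level of 20 myelin genes, relative to the 30 arrays, was 1.57, 1.13, 0.90, -0.19 and 0.19 in extreme females 1 to 5, against -0.98, -1.01, 0.93, 0.87 and 0.71 in control females 1 to 5. Thalamic markers were high in extreme females 2 and 3 (2.05 and 1.66) and in control females 4 and 5 (1.28 and 1.30). Striatal and central amygdala markers were high in extreme female 1 (1.37) and in control female 3 (2.22). Choroid plexus markers reached 1.49 in extreme female 3. The control means of that list lay between -0.16 and 0.22. Thalamic and striatal markers thus stood high in single rats of both groups, choroid plexus markers in extreme females 1 and 3 only, and the myelin mean of control females 1 and 2 lay below that of all extreme females. Of 14 amygdala markers looked up 11 passed the intensity filter, and their median fold change was 0.05. None of them passed in limma, with 3 at an unadjusted p under 0.05. Among them the somatostatin gene Sst lay between 7.35 and 11.07 in extreme females and between 8.99 and 10.61 in control females. In whole tissue, fewer cells of a type and less RNA per cell cannot be told apart.

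**Figure D1:**
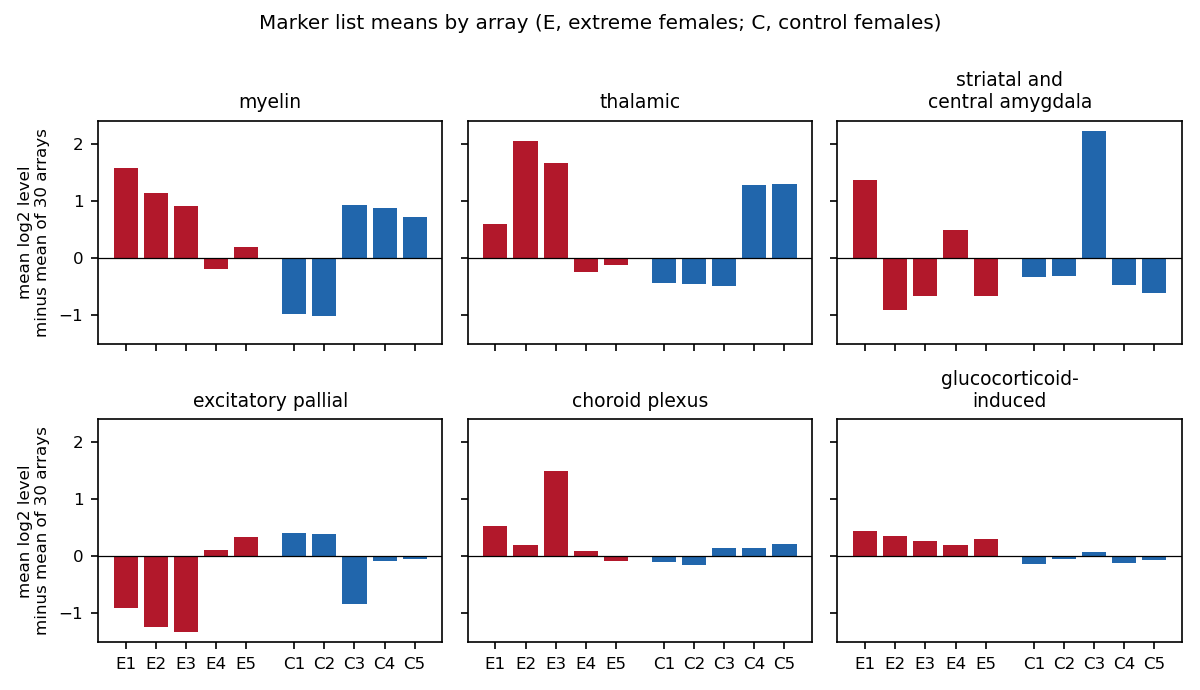
Mean log2 level of the tested genes of 6 lists on each array (bars), as the difference from the mean of all 30 arrays, for extreme females (E1 to E5, red) and control females (C1 to C5, blue). Myelin, thalamic, striatal and pallial lists differ between rats within both groups. The glucocorticoid-induced list lies between 0.20 and 0.45 in extreme females and between -0.14 and 0.08 in control females. It was written with earlier results of these data known, so its separation is no test. Means of the cholesterol synthesis, astrocyte and proteasome lists, not drawn here, do not overlap between the groups either.

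A split of the arrays, found from the values themselves, also moved with the groups. The sources used here do not give its cause, which was not tested. A set of 8 probes, 3 of them for the ribosomal proteins of Rpl23, Rpl7 and Rpl37l1 and 5 with no gene name, parted the 30 arrays into a higher state (16 arrays) and a lower state (14 arrays). Extreme females 1, 3, 4 and 5 were in the higher state. Extreme female 2 and all 5 control females were in the lower state. Rpl37l1 read 12.42, 9.54, 11.91, 12.47 and 12.36 in extreme females 1 to 5, against 9.91, 9.73, 10.07, 9.56 and 9.31 in control females. Group and state are thus nearly the same split, and each main result below is given with the state as a covariate where that ended its call. The part of the state in these results cannot be told apart from the group within the 10 arrays, apart from extreme female 2.

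Extreme females differed from controls in 869 of the 13308 probes, or 6.53%. Of these, 446 were higher (3.35% of all probes tested) and 423 lower (3.18%), and 568 named genes were among them. The median size of a called change was 0.43, and 31 probes changed by at least 1, which is 2-fold, 18 of them higher and 13 lower. In 501 of the 869 probes no extreme array overlapped a control array, against 848 of all 13308 probes, or 6.37%. With the state as a covariate 590 probes passed, or 4.43%, and 309 of the 869 were among them. Of the 869, 99.3% kept their sign, and their median size was 0.36. With extreme female 2 left out 760 probes passed. On 530 of these (69.7%) the value of extreme female 2 lay beyond all 5 control arrays in the direction of the other extreme rats, against 39.5% of all probes. The same control arrays served to call these probes, which by itself raises that share. The comparison is therefore no test of the state.

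Some of the genes that glucocorticoids are known to induce rose in extreme females. Of 25 such genes that passed the intensity filter (32 were listed), 9 rose, against 3.35% of all probes, and 1 fell. The list was written with earlier results of these data known, so its share is a description and no test. The list's median was 0.25, against -0.00 over all probes, and 0.08 with the array state as a covariate, and 7 of the 25 were below 0. The 9 were Sgk1, Dusp1, Gpd1, Ddit4, Plekhf1, Nfkbia, Errfi1, Gadd45g and Tsc22d3.

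Sgk1, a serum- and glucocorticoid-regulated kinase that acts on ion channels and transporters, had the largest change of the list. It read 13.43, 13.01, 12.75, 11.99 and 12.57 in extreme females 1 to 5, against 10.76, 10.70, 12.15, 11.41 and 11.38 in control females. The lowest extreme array, extreme female 4, lay below the highest control array, control female 3, and the other arrays did not overlap. The difference was 1.47 ± 0.27 (2.77-fold, adjusted p = 0.00166), and 1.74 with the array state as a covariate.

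Ddit4, which inhibits mTOR signalling and is also induced by low oxygen and DNA damage, read 11.37, 11.27, 10.76, 10.34 and 10.55 in extreme females, against 9.74, 9.80, 10.00, 9.92 and 9.87 in control females. All extreme arrays lay above all control arrays, by 0.99 ± 0.17 on average (adjusted p = 0.000895). Errfi1, a feedback inhibitor of the EGF receptor, was higher by 0.93 ± 0.15 (adjusted p = 0.000827), also without overlap. Plekhf1, an endosomal protein gene, read 8.80, 8.59, 8.59, 7.80 and 7.76 in extreme females, against 7.22, 7.39, 7.52, 7.26 and 7.39 in control females. It was higher by 0.95 ± 0.15 (adjusted p = 0.000558), and extreme females 1, 2 and 3 stood well above the other two.

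Nfkbia encodes IkappaBalpha, which holds NF-kappaB in the cytoplasm and is induced by both NF-kappaB and glucocorticoids. It read 11.16, 11.06, 11.21, 10.92 and 10.94 in extreme females, against 10.25, 10.44, 10.22, 9.79 and 9.93 in control females. The groups did not overlap and the difference was 0.94 ± 0.17 (adjusted p = 0.00166). With the array state as a covariate it was 0.61, with an adjusted p = 0.061. It was the single gene called among 13 genes of NF-kappaB and inflammation, whose median was -0.00, against 6.53% of all probes called. Gadd45g, a stress-response gene of growth arrest, was higher by 0.83 ± 0.16 (adjusted p = 0.00208) without overlap.

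The calls of the other 3 genes were less stable. Dusp1, a phosphatase that switches off MAP kinases, was higher by 1.12 ± 0.33 (adjusted p = 0.0365). Its call ended without any one of extreme females 1, 2 and 3 or control females 1, 2 and 3, with an adjusted p = 0.107 at most. Gpd1, the glycerol-3-phosphate dehydrogenase of oligodendrocytes and other cells, was higher by 1.07 ± 0.29 (adjusted p = 0.0254). It read 8.17 and 8.26 in control females 1 and 2, the arrays with the lowest myelin means, and its call ended without any one of those arrays or of extreme females 1, 2 and 3 (adjusted p = 0.0913 at most). Tsc22d3, which encodes GILZ, a glucocorticoid-induced suppressor of NF-kappaB and AP-1, was higher by 0.46 ± 0.13 (adjusted p = 0.0272). Its call ended with the array state (0.49, adjusted p = 0.0766) or 4 regional means (0.32, adjusted p = 0.0918) as covariates and without control female 1 or 2 or extreme female 2 or 3 (adjusted p = 0.0965 at most). The gene that fell, chosen here after its value was seen, was Mertk, a receptor for dying cells on astrocytes and microglia, at -0.26 ± 0.07 (adjusted p = 0.0333), and at -0.07 with the state (adjusted p = 0.595).

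With the array state as a covariate 7 of the 9 rises passed, and with 4 regional marker means 8 of them. Leaving out 1 array at a time left 6 to 9 rises on the list, the fewest without control female 1 or 2 or extreme female 2 or 3. A fit of the female arrays alone left 6 rises. Array state and 4 regional means together left 4. With the lower-state arrays alone, where extreme female 2 is the only extreme array, the list median was 0.20. Myelin, thalamic and pallial marker means differed between the same arrays, as given above.

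**Figure D2:**
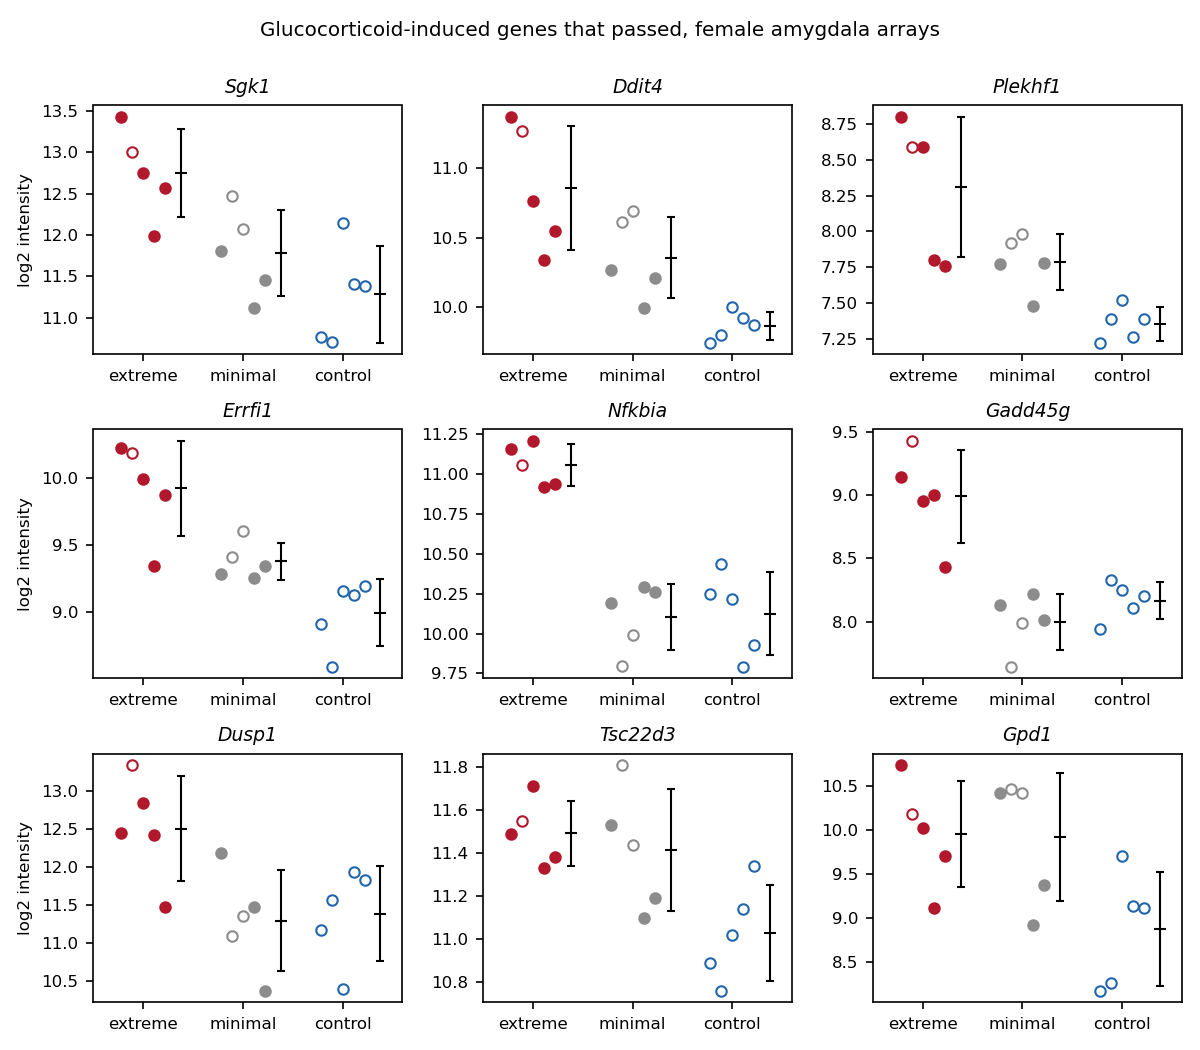
Log2 intensity of the 9 glucocorticoid-induced genes that rose, on each array of extreme (red), minimal (grey) and control (blue) females, with the mean and SD beside each group (n = 5). Filled circles are arrays in the higher state and open circles arrays in the lower state. For Nfkbia and Gadd45g the minimal females lie with the controls, at means of 10.10 and 8.00, and for Ddit4 between the other groups at 10.35.

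The receptors themselves and Fkbp5 did not pass. The glucocorticoid receptor gene Nr3c1 lay near the array median and was at 0.09 ± 0.08 (adjusted p = 0.583). The mineralocorticoid receptor gene Nr3c2 was at 0.09 ± 0.13 (adjusted p = 0.749), with extreme female 5 at 8.05 and the other extreme arrays between 7.23 and 7.45. Fkbp5, the receptor co-chaperone that glucocorticoids induce in many tissues, read 9.68, 8.41, 8.91, 9.79 and 10.29 in extreme females, against 10.08, 10.05, 10.72, 9.24 and 9.42 in control females. The groups overlapped widely, at -0.48 ± 0.29 (adjusted p = 0.358), and with the array state as a covariate it passed as lower, at -1.14 (adjusted p = 0.032). Of 8 genes for the receptors and their partners 1 rose and 1 fell, against 3.35% and 3.18% of all probes. The receptor chaperone gene Hsp90aa1 was higher by 0.69 ± 0.16 (adjusted p = 0.00747) and the co-repressor gene Ncor1 lower, at -0.52 ± 0.13 (adjusted p = 0.0139). Neither overlapped between the groups.

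Regulators of the early stress response rose in part. Nfil3, a basic leucine zipper repressor of the clock and of immune genes, read 9.66, 9.44, 9.14, 9.09 and 8.87 in extreme females, against 8.03, 7.90, 8.26, 8.47 and 8.34 in control females. The groups did not overlap, and the difference was 1.04 ± 0.14 (2.06-fold, adjusted p = 4.9e-05). It was 0.97 with the array state and 1.01 with 4 regional means as covariates.

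Among 16 immediate early genes 2 rose, against 3.35% of all probes, with a list median of 0.29. That median was 0.12 with the array state, 0.43 with 4 regional means and 0.15 without extreme female 4. The list mean was -0.03, -0.17, -0.37, 0.69 and 0.04 in extreme females 1 to 5, against -0.45 to 0.06 in control females. Atf3, a stress-induced CREB family factor, read 7.26 to 7.54 in extreme females, against 6.83 to 7.09 in control females, and was higher by 0.42 ± 0.07 (adjusted p = 0.000895). Ier2 was higher by 0.47 ± 0.14 (adjusted p = 0.0361), and its call ended with the array state as a covariate (0.51, adjusted p = 0.0837) and without extreme female 2, 3 or 4 or control female 1, 3 or 4 (adjusted p = 0.0899 at most). Fos, the standard marker of neuronal activation, did not pass: it read 8.43, 9.47, 8.63, 9.32 and 7.96 in extreme females, against 7.45, 8.22, 7.64, 8.43 and 8.07 in control females. Extreme females 2, 3 and 4 lay above all controls, extreme female 1 read the same as the highest control, and extreme female 5 lay within them. The difference was 0.80 ± 0.29 (adjusted p = 0.0914). Klf4 was at 0.53 ± 0.17 (adjusted p = 0.0576).

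Apold1, an early response gene of the vessel wall, was the only one of 10 endothelial genes that passed, against 6.53% of all probes. It read 8.07, 8.06, 8.08, 8.21 and 8.03 in extreme females, against 7.48, 7.94, 7.36, 7.42 and 7.33 in control females. The extreme rats were nearly alike and lay above the controls by 0.59 ± 0.09 (adjusted p = 0.000487). Of the 10 endothelial genes 7 were below 0, with a list median of -0.10. Of 13 clock genes 1 rose and 1 fell, against 3.35% and 3.18% of all probes. Nfil3 rose, and Npas2, a partner of the clock factor BMAL1, fell, at -0.42 ± 0.10 (adjusted p = 0.00948), and at -0.34 with the array state (adjusted p = 0.101). Per2 was at -0.73 ± 0.24 (adjusted p = 0.0656), with extreme females 1, 2 and 3 at 9.15, 8.49 and 9.08 and extreme females 4 and 5 at 10.20, within the control range of 9.94 to 10.57. It passed as lower with the array state (adjusted p = 0.0191) and with 4 regional means (adjusted p = 0.0449).

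Secretory granule genes moved in both directions. Scg2, the precursor of the peptide secretoneurin, read 9.21, 9.79, 10.02, 9.05 and 9.82 in extreme females, against 8.30, 7.87, 8.37, 8.73 and 8.67 in control females. The groups did not overlap and the difference was 1.19 ± 0.27 (2.28-fold, adjusted p = 0.00699). Vgf, a neuropeptide precursor induced by growth factors, was higher by 0.64 ± 0.19 (adjusted p = 0.0438), with extreme females 2 and 3 at 9.03 and 8.90 and the other extreme rats between 7.68 and 8.08, close to the controls. Its call ended with the array state (0.68, adjusted p = 0.108), with the replicate number as a block (adjusted p = 0.0612) and without extreme female 2 or 3 or control female 1, 2 or 3 (adjusted p = 0.159 at most). Ptprn, a granule membrane protein gene, fell by 0.54 ± 0.16 (adjusted p = 0.0366), with -0.48 and an adjusted p = 0.157 with the state, 0.103 with 4 regional means and 0.129 at most without 1 of extreme females 1, 2 and 3 and control females 1 and 2. Of 25 stress neuropeptide and receptor genes 1 passed, the delta opioid receptor gene Oprd1 at 0.19 ± 0.06 (adjusted p = 0.0424), a call lost with 4 regional means (adjusted p = 0.0756), with the replicate number as a block (adjusted p = 0.056) and without extreme female 1, 2 or 5 or control female 1, 2, 3 or 5 (adjusted p = 0.119 at most). The corticotropin-releasing hormone gene Crh was at 0.23 ± 0.19 (adjusted p = 0.548) and overlapped throughout.

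**Figure D3:**
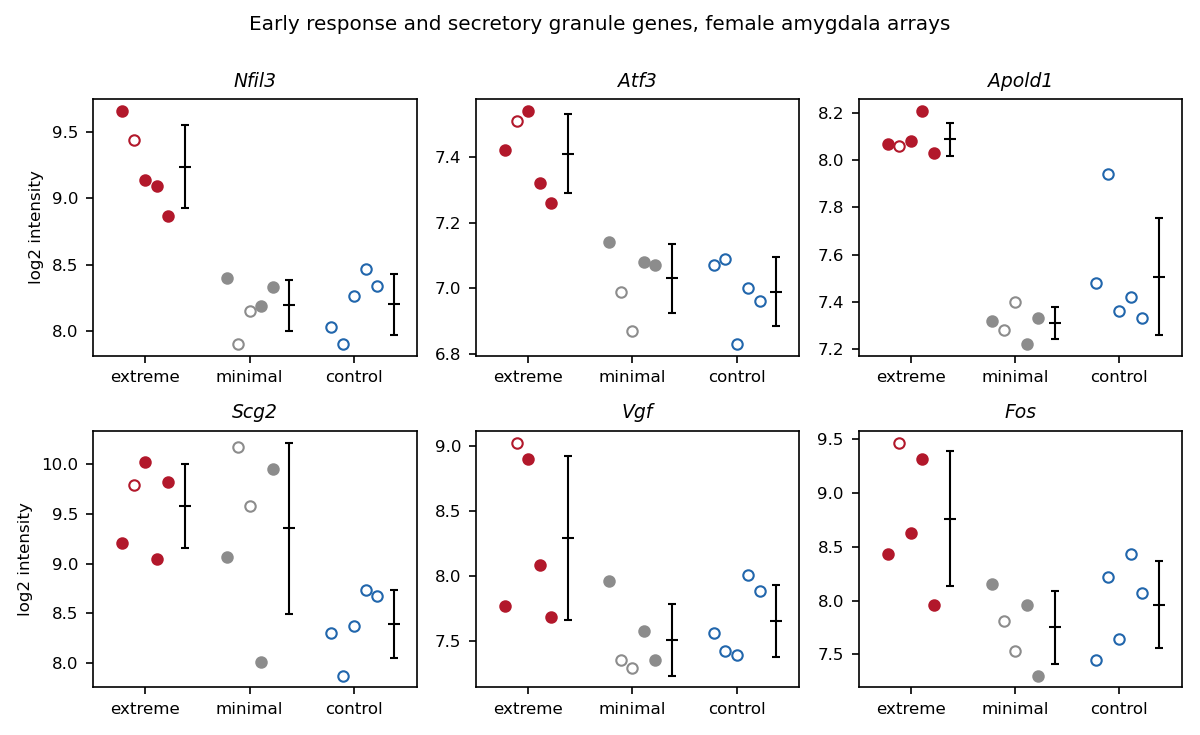
Log2 intensity of 6 early response and secretory granule genes on each array of extreme (red), minimal (grey) and control (blue) females, with the mean and SD beside each group (n = 5). Filled circles are arrays in the higher state and open circles arrays in the lower state. Nfil3, Atf3 and Apold1 are higher in extreme than in both other groups, while Scg2 averages 9.36 in minimal females, against 9.58 in extreme and 8.39 in control females.

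Promoters of these genes were searched for elements of the factors named above, to show where such letters lie. The windows are from the RefSeq promoter table of the GRCr8 assembly, 25 bases on either side of the match where the 250 bases before the start allow. The first group shows the cyclic AMP response element TGACGTCA (its own reverse complement) in capitals.
Scg2: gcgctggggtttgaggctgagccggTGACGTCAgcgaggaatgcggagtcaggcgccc
Vgf: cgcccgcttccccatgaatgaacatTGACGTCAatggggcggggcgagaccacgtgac
Dusp1: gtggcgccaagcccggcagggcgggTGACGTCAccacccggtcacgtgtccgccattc
Ier2: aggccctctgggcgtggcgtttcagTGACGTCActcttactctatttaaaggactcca
Plekhf1: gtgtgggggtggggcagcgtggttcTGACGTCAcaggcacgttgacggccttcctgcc
The Scg2 window lies at chr9:88256957-88257014 on the minus strand and the Vgf window at chr12:25277078-25277135 on the minus strand. The Dusp1 window lies at chr10:17184704-17184761 and the Ier2 window at chr19:40399282-40399339, both on the plus strand, and the Plekhf1 window at chr1:100046822-100046879 on the minus strand. The element begins 90 bases before the start in Vgf, 124 in Dusp1, 66 in Ier2 and 37 in Plekhf1.

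The core of the glucocorticoid response element, ACANNNTGT, which is also its own reverse complement, is in capitals in the next group. The last line shows the NF-kappaB motif, which is GGG, any 3 bases and TTCC, or on the other strand GGAA, any 3 bases and CCC as here.
Nfil3: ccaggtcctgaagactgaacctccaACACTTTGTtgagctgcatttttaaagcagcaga
Apold1: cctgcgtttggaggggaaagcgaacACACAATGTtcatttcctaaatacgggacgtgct
Plekhf1: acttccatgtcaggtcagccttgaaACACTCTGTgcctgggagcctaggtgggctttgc
Tsc22d3: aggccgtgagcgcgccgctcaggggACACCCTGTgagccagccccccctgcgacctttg
Nfkbia: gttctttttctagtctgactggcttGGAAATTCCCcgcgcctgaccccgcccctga
The Nfil3 window lies at chr17:12432229-12432287 and the Apold1 window at chr4:169552394-169552452, both on the plus strand. The Plekhf1 window at chr1:100046933-100046991, the Tsc22d3 window at chrX:109065580-109065638 (1 of its annotated starts) and the Nfkbia window at chr6:78597073-78597128 are on the minus strand. The matches begin 122, 180, 149, 183 and 31 bases before the start, in the order printed.

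These letters are not particular to promoters of genes that rose. Of all 33469 promoters, 1.59% hold the cyclic AMP element in the 250 bases before the start, 5.81% the glucocorticoid core and 4.53% the NF-kappaB motif on either strand. Among genes with a promoter in the table, the cyclic AMP element was found for 5% of 220 genes that rose, 2.81% of 249 that fell and 2.9% of 7611 tested genes. The glucocorticoid core was found for 4.09%, 4.02% and 3.78% of the same genes, and the NF-kappaB motif for 9.09%, 6.43% and 5.47%. Windows are printed only for genes that rose. Among genes that fell, Syn1 and Napa also hold the cyclic AMP element, and Zbtb18 and Cldn10 the glucocorticoid core. Of the 8 glucocorticoid-induced genes that rose and are in the table, 2 hold the glucocorticoid core and 2 the cyclic AMP element. A match is a description of the letters, not a site of binding.

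Of 7 named genes that fell by at least 1, Lamp5, Cacng3, Lzts1 and Cabp1 are genes of neurons and synapses. Lamp5, a vesicle membrane protein of cortical and pallial neurons, read 11.71, 9.28, 9.52, 12.38 and 10.88 in extreme females, against 13.13, 12.93, 12.38, 12.45 and 11.99 in control females. Extreme females 2 and 3 were lowest and extreme female 4 overlapped the controls, with a difference of -1.82 ± 0.46 (3.53-fold lower, adjusted p = 0.0162). The call ended without extreme female 2 or 3 (adjusted p = 0.0675 at most) and with 4 regional means as covariates, at -1.16 (adjusted p = 0.0568).

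The same arrays were low for other genes of this kind. Ephx4, an epoxide hydrolase family gene, was lower by 1.53 on the log2 scale (-1.53 ± 0.41, adjusted p = 0.0227). Cacng3, an auxiliary subunit of AMPA receptors, read 7.77, 7.37, 7.61, 9.01 and 8.16 in extreme females, against 10.15, 9.99, 8.66, 8.86 and 8.43 in control females. Control females 1 and 2, the arrays with the lowest myelin means, were highest, and the difference was -1.23 ± 0.33 (adjusted p = 0.0225). Lzts1, a postsynaptic density gene, was at -1.18 ± 0.33 (adjusted p = 0.0286), and Cabp1, a neuronal calcium-binding protein gene, at -1.13 ± 0.33 (adjusted p = 0.0377). The calls of Ephx4, Cacng3, Lzts1 and Cabp1 ended without extreme female 2 or 3 or control female 1 or 2, that of Cacng3 also without extreme female 1, that of Lzts1 without extreme female 5, and that of Cabp1 without extreme female 1 or control female 4. The adjusted p was 0.128 at most, for Cabp1. With 4 regional means Cacng3 alone of these kept its call (adjusted p = 0.0177).

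Of 11 pallial excitatory neuron markers 2 fell, Lamp5 and the plasticity kinase gene Camk2a, against 3.18% of all probes. Of the list 9 were below 0, with a median of -0.52. That median was -0.80 with the array state, -0.31 with 4 regional means, -0.94 without control female 3 and -0.30 without extreme female 1. Camk2a read 7.71, 7.89, 7.79, 8.87 and 8.95 in extreme females, against 9.84, 9.83, 8.72, 8.70 and 8.53 in control females, so that extreme females 4 and 5 lay within the controls. It was at -0.88 ± 0.26 (adjusted p = 0.04), and its call ended with the array state (-1.08, adjusted p = 0.053) and without any one of extreme females 1, 2 and 3 and control females 1 and 2 (adjusted p = 0.144 at most). The mean of these markers was -0.91, -1.23 and -1.33 in extreme females 1, 2 and 3, whose myelin means were the highest of the group, and 0.11 and 0.34 in extreme females 4 and 5. In control females it ranged from -0.84 in control female 3 to 0.41 in control female 1. The part of this marker difference in the falls of single genes was not tested beyond the covariates given.

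Some release and receptor genes fell as well. Of 24 synaptic vesicle and release genes 4 fell, against 3.18% of all probes, and none rose. The fit of female arrays alone left 1 fall on this list, and the fit of the 10 arrays compared left 0. Rims1, a scaffold of the active zone, was at -0.95 ± 0.20 (adjusted p = 0.00454), and the fusion ATPase gene Nsf at -0.73 ± 0.19 (adjusted p = 0.0168) without overlap. Its cofactor gene Napa was at -0.40 ± 0.11 (adjusted p = 0.0282) and the vesicle phosphoprotein gene Syn1 at -0.50 ± 0.15 (adjusted p = 0.0425). With the array state Napa alone of these passed (adjusted p = 0.0384), with Rims1 at -0.58, Nsf at -0.43 and Syn1 at -0.47, and leaving out 1 array left 1 to 6 falls on the list. The call of Rims1 held without any 1 array. The other 3 calls ended without extreme female 1 or 3 or control female 1, those of Napa and Syn1 also without extreme female 2 or control female 2, and that of Syn1 without extreme female 5 or control female 5 (adjusted p = 0.148 at most, for Syn1). Of 22 glutamate receptor genes 2 fell, Cacng3 and the AMPA receptor subunit gene Gria3, against 3.18% of all probes. In the fits of female arrays alone and of the 10 arrays compared 0 of the 22 genes fell. Gria3 was at -0.79 ± 0.20 (adjusted p = 0.0183), a call that ended without extreme female 1 or 3 or control female 1 or 2 (adjusted p = 0.0743 at most). The kainate receptor subunit gene Grik1 rose by 0.39 ± 0.09 (adjusted p = 0.0101), and with the state was at 0.38 (adjusted p = 0.0552). Of 20 postsynaptic genes 2 fell, against 3.18% of all probes, and 0 in each of the same 2 smaller fits. They were Camk2a and the calcineurin subunit gene Ppp3cb, with Ppp3cb at -0.77 ± 0.23 (adjusted p = 0.0451, and -0.37 and 0.444 with the state). The Ppp3cb call ended without extreme female 1, 3 or 4 or control female 1, 2, 4 or 5 (adjusted p = 0.148 at most). No gene passed among 13 genes of GABA, 51 voltage-gated channels or 25 monoamine and acetylcholine receptors in limma, with medians of -0.09, -0.02 and -0.05. At an unadjusted p under 0.05 there were 1, 7 and 2 such genes in these lists.

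Pou3f2, a POU transcription factor of upper-layer neurons and some glia, read 8.63, 8.06, 8.37, 8.87 and 8.20 in extreme females, against 9.83, 9.68, 9.26, 9.06 and 9.20 in control females. The groups did not overlap, at -0.98 ± 0.18 (adjusted p = 0.002), and the call held with the array state, with 4 regional means and without any 1 array. Klf5, a Krüppel-like factor, was at -1.02 ± 0.21 (adjusted p = 0.00323), with extreme female 4 at 9.51 just within the controls. Zbtb18, a zinc finger transcriptional repressor, was at -0.94 ± 0.19 (adjusted p = 0.00323). Tspan7, a membrane protein of synapses, was at -0.94 ± 0.16 (adjusted p = 0.000788) without overlap. The microtubule gene Map1b was at -0.98 ± 0.30 (adjusted p = 0.0493), but its other probe was at -0.28 (adjusted p = 0.4), and its call ended with the state (-0.12, adjusted p = 0.828), with the replicate number as a block (adjusted p = 0.0636) and without any array but those of extreme female 2 and control female 3 (adjusted p = 0.13 at most).

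**Figure D4:**
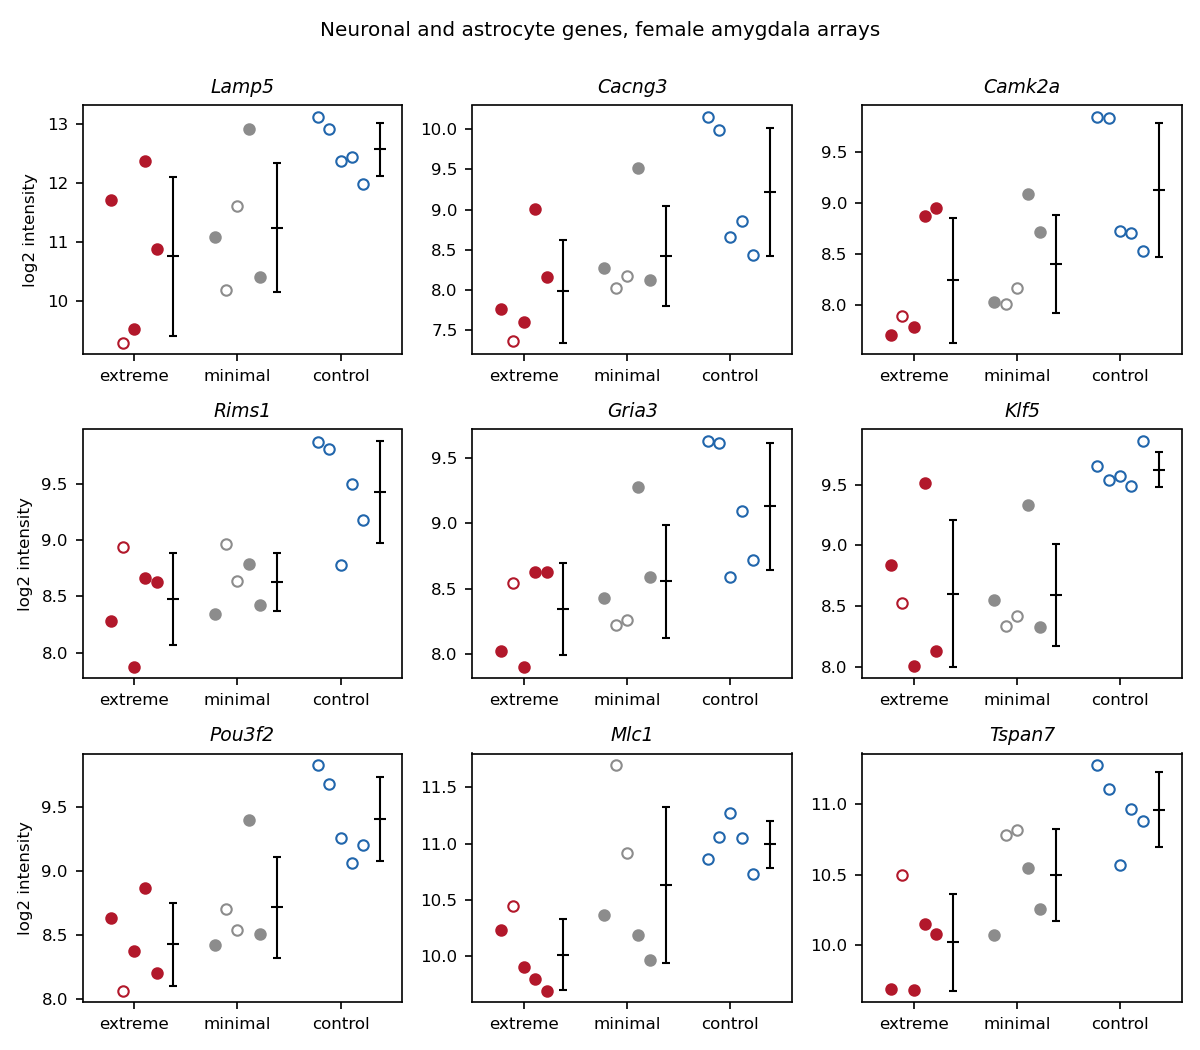
Log2 intensity of 9 neuronal and astrocyte genes that fell, on each array of extreme (red), minimal (grey) and control (blue) females, with the mean and SD beside each group (n = 5). Filled circles are arrays in the higher state and open circles arrays in the lower state. Pou3f2, Mlc1 and Tspan7 do not overlap between extreme and control females, while extreme female 4 lies among the controls for Lamp5, Cacng3 and Camk2a.

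Glial genes differed by cell type. All 14 astrocyte genes tested were below 0, with a median of -0.23, and 2 fell, against 3.18% of all probes. The fit of female arrays alone left 0 falls on this list, and the fit of the 10 arrays compared left 1. Mlc1, a protein of astrocyte end-feet, read 10.23, 10.45, 9.90, 9.80 and 9.69 in extreme females, against 10.86, 11.06, 11.27, 11.05 and 10.73 in control females. The groups did not overlap, at -0.98 ± 0.24 (adjusted p = 0.0121), but with the array state the value was -0.30 (adjusted p = 0.428). Cldn10, a claudin of astrocytes, was at -0.32 ± 0.09 (adjusted p = 0.0272), a call that ended without extreme female 1 or 3 or control female 2 or 3 (adjusted p = 0.0771 at most). The means of the list lay between -0.19 and -0.05 in extreme females and between 0.07 and 0.30 in control females. Sfxn5, a mitochondrial carrier gene that astrocytes and neurons express, was at -0.93 ± 0.15 (adjusted p = 0.000562) and kept its call with the state. Of 7 oligodendrocyte precursor genes 2 fell, against 3.18% of all probes. The receptor gene Pdgfra fell by 0.47 ± 0.13 (adjusted p = 0.0249) and the proteoglycan gene Cspg5 by 0.58 ± 0.11 (adjusted p = 0.00211). Neither passed with the state (-0.30 and -0.40, adjusted p = 0.26 and 0.0694). The Pdgfra call also ended without extreme female 3 or control female 1 or 2 (adjusted p = 0.0755 at most). Of 12 microglial genes 1 passed, against 6.53% of all probes. This was the complement gene C1qc, at -0.51 ± 0.14 (adjusted p = 0.0218, and -0.55 and 0.0626 with the state). That call ended without extreme female 1 or 5 or control female 1, 2 or 3 (adjusted p = 0.0681 at most).

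Myelin genes were higher on average without passing. Of 20, 19 were above 0 with a median of 0.63, and 0 passed in limma, with 5 at an unadjusted p under 0.05. Pllp, a myelin membrane protein gene outside that list, passed at 1.06 ± 0.29 (adjusted p = 0.0282). It read 10.62, 10.18, 10.17, 9.05 and 9.20 in extreme females, against 8.10, 8.06, 9.15, 9.47 and 9.14 in control females. Extreme females 1, 2 and 3 were highest and control females 1 and 2 lowest, as for the myelin mean. Its call ended without control female 1 or 2 or extreme female 1, 2 or 3 (adjusted p = 0.105 at most). Ttr, the thyroxine and retinol carrier of the choroid plexus, had the largest rise of any named gene that passed, at 2.79 ± 0.80 (adjusted p = 0.0324). It read 11.90, 9.35, 14.67, 10.88 and 9.92 in extreme females, against 7.20 in control female 1, a slightly lower value in control female 2, and 9.63, 9.94 and 8.98 in control females 3 to 5. Extreme female 3 stood far above the rest, as it did for the choroid plexus mean, and without it the adjusted p was 0.127. The call also ended without extreme female 1 or control female 1 or 2, with the array state (1.86, adjusted p = 0.274) and with 4 regional means (2.20, adjusted p = 0.106).

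Cholesterol synthesis genes rose together in part. Of 15, 3 rose, against 3.35% of all probes, 0 fell and 12 were above 0, with a median of 0.23. Idi1, an early isoprenoid isomerase, read 9.61, 9.49, 9.53, 9.11 and 9.13 in extreme females, against 8.46, 8.60, 8.95, 8.79 and 8.80 in control females. It was higher by 0.66 ± 0.11 (adjusted p = 0.000697) without overlap. Dhcr7, which makes cholesterol in the last step, was higher by 0.47 ± 0.10 (adjusted p = 0.00487) and the demethylase gene Cyp51 by 0.47 ± 0.11 (adjusted p = 0.00817). The list mean was 0.28, 0.22, 0.27, 0.09 and 0.06 in extreme females and between -0.10 and 0.03 in control females. Within the extreme group the 3 rats with the highest myelin means also had the highest cholesterol synthesis means. Control females 3 to 5, with myelin means of 0.93, 0.87 and 0.71, were at -0.03, -0.05 and 0.03. Whether the 2 lists move together was not tested. All 3 calls held with the array state and, in a separate fit, with 4 regional means. With both in 1 fit 1 gene of the list passed, and 1 with the lower-state arrays alone.

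Metabolic and protein quality genes moved singly. Of 20 glycolysis genes 3 rose and 2 fell, against 3.35% and 3.18% of all probes. The rises were Aldoa (0.46 ± 0.11), Gapdh (0.39 ± 0.10) and Eno1 (0.40 ± 0.10), with adjusted p = 0.0125, 0.0139 and 0.0158. Gapdh did not pass with the state (0.38, adjusted p = 0.0771) and Eno1 not without extreme female 3 (adjusted p = 0.0514). The other Aldoa probe was at -0.32 (adjusted p = 0.126). Pgm1, which links glucose to glycogen, read 8.56 to 8.85 in extreme females, against 9.26 to 9.38 in control females, and fell by 0.59 ± 0.12 (adjusted p = 0.00278; -0.35 and 0.108 with the state). The neuronal glucose transporter gene Slc2a3, picked after its value was seen, was at -0.24 ± 0.06 (adjusted p = 0.0215). Of 19 antioxidant genes 2 rose and 3 fell, against 3.35% and 3.18% of all probes. The falls were the quinone reductase gene Nqo1 (-0.42 ± 0.08), the haem oxygenase gene Hmox1 (-0.32 ± 0.08) and the glutathione transferase gene Gstm1 (-0.73 ± 0.19). Their adjusted p were 0.00323, 0.0204 and 0.0207. Hmox1 did not pass with the state (-0.21, adjusted p = 0.238) or without extreme female 5 or control female 5 (adjusted p = 0.0542 at most), and Gstm1 not without extreme female 2 or 3 or control female 3 (adjusted p = 0.071 at most). Gpx1 (0.62 ± 0.18) and Gsta4 (0.32 ± 0.09) rose. With the state they were at 0.66 and 0.30 and did not pass (adjusted p = 0.102 and 0.123).

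Of 36 proteasome subunit genes 3 rose, against 3.35% of all probes, and 0 fell, led by Psma1 at 0.77 ± 0.11 (adjusted p = 0.000191), whose groups did not overlap, and the ATPase subunit gene Psmc3 at 0.38 ± 0.09 (adjusted p = 0.013; 0.36 and 0.082 with the state). Of 45 translation factor genes 4 rose and 2 fell, against 3.35% and 3.18% of all probes. The RNA helicase gene Eif4a1 read 11.15, 11.50, 11.00, 11.11 and 11.17 in extreme females, against 10.81, 10.52, 10.80, 10.50 and 10.42 in control females, a difference of 0.58 ± 0.09 (adjusted p = 0.000505). Eif2ak4, the amino acid sensing kinase GCN2, was higher by 0.42 ± 0.08 (adjusted p = 0.00197). Of 16 heat shock genes 2 rose, against 3.35% of all probes. They were Hsp90aa1 and the mitochondrial chaperonin gene Hspe1, with Hspe1 at 0.78 ± 0.22 (adjusted p = 0.028, and 0.15 and 0.688 with the state). Of 22 endoplasmic reticulum genes 1 rose and 1 fell, against 3.35% and 3.18% of all probes. The disulfide isomerase gene Pdia3 rose by 0.66 ± 0.15 (adjusted p = 0.00728). The lectin chaperone gene Canx fell by 0.79 ± 0.24 (adjusted p = 0.0424, and -0.11 and 0.807 with the state). The Hspe1 call ended without any one of 6 arrays (adjusted p = 0.0843 at most), namely extreme females 1, 3 and 5 and control females 1, 2 and 5. The Canx call ended without any array but those of extreme female 2 and control female 5 (adjusted p = 0.119 at most).

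Of 62 ribosomal protein genes 8 rose and 2 fell, against 3.35% and 3.18% of all probes. With the state as a covariate none of the 8 rises passed. For Rpl23, Rpl7 and Rpl37l1 that loss was fixed, since their probes define the state. The other 5 were smaller but of the same sign with the state: Rps12 was at 0.64 without and 0.41 with it, Rps23 at 0.49 and 0.27, Rpl24 at 0.35 and 0.28, Rpl14 at 0.34 and 0.25, and Rpl18 at 0.30 and 0.18. The named probes that define the state had the largest values. Rpl23 was at 1.18 ± 0.33, Rpl7 at 1.68 ± 0.50 and Rpl37l1 at 2.02 ± 0.61, against -0.08, -0.19 and -0.34 with the state. Their adjusted p were 0.0314, 0.04 and 0.0428, and reached 0.0807, 0.1 and 0.0985 without single arrays, among them every extreme array except that of extreme female 2. Leaving out 1 array left 3 to 9 rises on the list. Rpl14 read 13.64 to 13.96 in extreme females, against 13.43 to 13.50 in control females, with extreme female 2, the lower-state array, at the low end. It rose by 0.34 ± 0.06 (adjusted p = 0.00208, and 0.0598 with the state). Rpl10 fell by 0.38 ± 0.07 (adjusted p = 0.00239; -0.28 and 0.0619 with the state).

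The genes with the smallest p included several with small changes and levels near the array median. Gadd45gip1, a mitochondrial ribosome protein gene that also binds GADD45 proteins, had the smallest p and read 9.42, 9.70, 9.70, 9.91 and 9.78 in extreme females, against 8.96, 8.75, 8.94, 9.00 and 8.89 in control females. It was higher by 0.79 ± 0.10 (adjusted p = 3.57e-05), and the endosomal membrane gene Tm9sf4 by 0.80 ± 0.11 (adjusted p = 0.00012). Slc4a5, a bicarbonate transporter of the choroid plexus, averaged 6.75 ± 0.08 in extreme and 7.36 ± 0.21 in control females (SD, n = 5 each), a fall of 0.61 ± 0.08 (adjusted p = 3.64e-05) while Ttr rose. Arhgap45 averaged 6.98 ± 0.03 in extreme and 7.51 ± 0.16 in control females, and the cyclin gene Ccnt1 averaged 6.80 ± 0.07 in extreme and 7.27 ± 0.15 in control females (SD, n = 5 each). Their adjusted p were 5.48e-05 and 0.000408. These 5 genes kept their calls with the array state, with 4 regional means and without any 1 array.

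Among the remaining lists single genes passed, against 6.53% of all probes. They were the cytochrome oxidase subunit gene Cox8a (0.42 ± 0.12, adjusted p = 0.0276) of 57 oxidative phosphorylation genes, the MHC gene RT1-T18 (-0.28 ± 0.06, adjusted p = 0.00451) of 38 antigen presentation genes and the surface protein gene Thy1 (-0.76 ± 0.23, adjusted p = 0.0493) of 13 general neuron markers. With the array state they were at 0.26, -0.23 and -0.20 and did not pass. The Thy1 call also ended without extreme female 1, 3, 4 or 5 or control female 1, 2, 4 or 5. That of Cox8a ended without extreme female 3 or control female 2 or 5. Neither of these 2 calls held in the fit of female arrays alone. No gene passed in limma among 9 sex steroid, 28 extracellular matrix, 14 interneuron, 16 striatal and central amygdala, 13 thalamic, 12 hypothalamic, 7 mural cell and 9 blood cell genes. At an unadjusted p under 0.05 these lists held 1, 3, 1, 1, 0, 3, 1 and 2 genes.

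Females with a minimal response, set against the same control arrays, had 263 called probes, or 1.98%. Because both comparisons share the 5 control arrays, their values are only set side by side. Klf5 was at -1.02 in extreme and -1.03 in minimal females, Slc4a5 at -0.61 and -0.59, Arhgap45 at -0.52 and -0.58, Npas2 at -0.42 and -0.41, and Pdia3 at 0.66 and 0.68. Nfil3 was at 1.04 in extreme and -0.00 in minimal females, Nfkbia at 0.94 and -0.02, and Gadd45g at 0.83 and -0.17. Sgk1 was at 1.47 and 0.50. The glucocorticoid-induced list had 9 rises in extreme and 0 in minimal females, with medians of 0.25 and -0.00. In the contrast between extreme and minimal females 2 of the 25 passed, against 0.128% of all probes. Gpd1 was at 1.07 in extreme and 1.04 in minimal females, and Tsc22d3 at 0.46 and 0.38.

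The contrast of extreme against minimal females in the same fit, whose difference uses no control array but whose SE pools all 6 groups, called 17 probes, 9 higher and 8 lower, or 0.128%. With the 10 arrays of these groups alone 3 probes passed. The 2 comparisons share the 5 extreme arrays, and 12 probes passed in both. Apold1 was higher than in minimal females by 0.78 ± 0.09 (adjusted p = 3.74e-05), Nfil3 by 1.05 ± 0.14 (adjusted p = 0.000123), Gadd45g by 0.99 ± 0.16 (adjusted p = 0.0022) and Nfkbia by 0.96 ± 0.17 (adjusted p = 0.00702). Atf3 was higher by 0.38 ± 0.07 (adjusted p = 0.0114) and the hyaluronidase gene Hyal2 by 0.35 ± 0.06 (adjusted p = 0.00817). Lower were Poldip2, whose protein binds a DNA polymerase subunit, at -0.54 ± 0.07 (adjusted p = 0.000123), the lysosome positioning gene Borcs7, at -0.51 ± 0.09 (adjusted p = 0.00384), the collagen prolyl hydroxylase gene P4ha1, at -0.45 ± 0.08 (adjusted p = 0.00384), and Pgm1, at -0.57 ± 0.12 (adjusted p = 0.0316). Each of these also passed against controls, with Poldip2 at -0.31 ± 0.07, Borcs7 at -0.49 ± 0.09, P4ha1 at -0.37 ± 0.08 and Hyal2 at 0.30 ± 0.06. With the array state Poldip2 (-0.26, adjusted p = 0.0856) and P4ha1 (-0.27, adjusted p = 0.0832) did not pass against controls. Sgk1 (0.97 ± 0.27, adjusted p = 0.201) and Dusp1 (1.21 ± 0.33, adjusted p = 0.188) did not pass between these groups, and a fit with the labels' replicate number as a block changed none of the calls named here.

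The change of extreme females differed from that of extreme males on 1092 probes, or 8.21%, by the interaction term of the same fit. Nfil3 was at 1.04 ± 0.14 in females and -0.22 ± 0.14 in males, a difference of 1.26 (adjusted p = 0.00052). Sgk1 was at 1.47 ± 0.27 in females and -0.01 ± 0.27 in males, a difference of 1.48 (adjusted p = 0.0151). The state ran the other way in males, with 5 of 5 extreme arrays lower and 5 of 5 control arrays higher, and with the state as a covariate 6 probes passed. Sex and array state cannot be told apart in this test. With the state the difference was 1.09 for Nfil3 and 2.09 for Sgk1 (adjusted p = 0.11 for each).

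**Figure D5:**
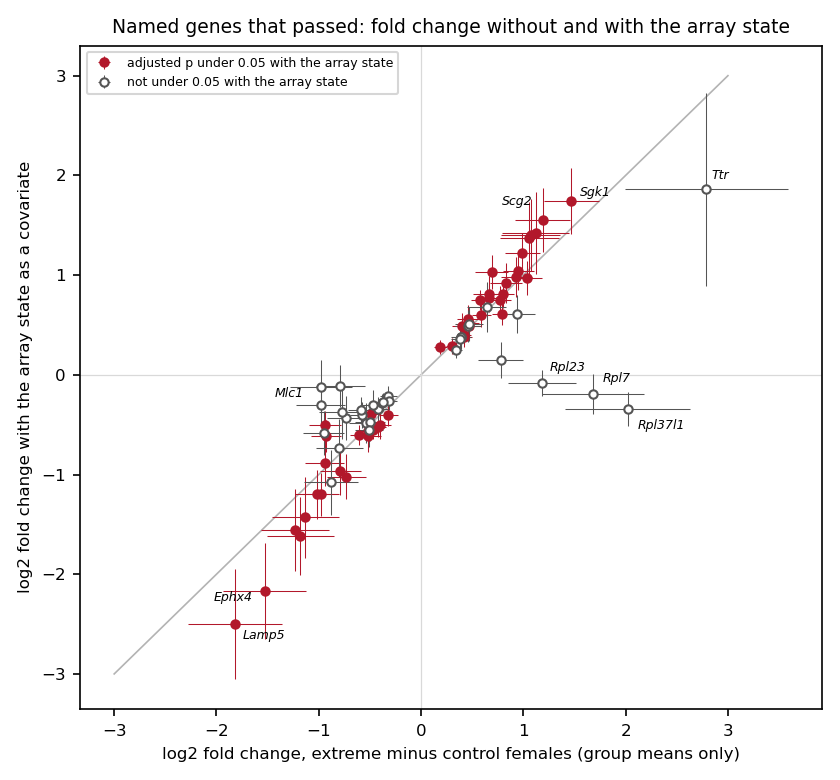
Log2 fold change of the named genes that passed, extreme minus control females, in the fit of group means (x axis) and with the array state as a covariate (y axis), with SE bars. The grey line marks equal values. Filled red points have an adjusted p under 0.05 with the state and open points do not. The state probes of Rpl23, Rpl7 and Rpl37l1 lie below 0 on the y axis, while Sgk1 moves to 1.74 and Lamp5 to -2.50.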

How the data were processed

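RNA from 30 amygdala samples was labelled and hybridised to Illumina arrays, 1 array per rat, per the labels' protocols. The authors deposited log2 intensity values per probe. That the scale is log2 was judged from the values, and all columns share the same quartiles, as after quantile normalization. The sources used here do not name the background correction, the normalization method or the slides. The deposited table that is not normalized has 60 columns whose names match no sample, and it was not used. Of 22523 probes, 13793 carry 1 gene symbol in the platform annotation, 0 carry several and 8730 carry none. Of the gene IDs, 13752 matched RefSeq (GRCr8), and 0 symbols changed. No 2 arrays held identical values, and correlations between arrays ranged from 0.9447 to 0.9954.

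A model of 6 group means was fitted to all 30 arrays with limma 3.58.1 in R 4.3.3 (24 residual degrees of freedom), on the 13308 probes that exceeded their array's median on 5 arrays or more. P-values were adjusted by the Benjamini-Hochberg method over these probes, with a threshold of 0.05. The script was tested on simulated data. The array state was found from probes with a gap of at least 1 between arrays. For a gene with several probes, the one with the highest mean was used. Genes were named by a rule: the 15 largest changes each way, the 10 smallest p, up to 4 members of each of 41 lists, fixed stress genes, the 6 largest sex differences each way and 8 genes called against both other female groups. The text prints 85 of them and some other list members that passed, picked after their values were seen. Members, lists and rule were chosen with earlier results of these data known. Replicate numbers in the sample descriptions, which are not rat numbers, met the rule for pairing extreme and minimal females by deviations from the group means (correlations of 0.146 to 0.687). Alternatives covered the filter, spread, arrays fitted, pairing, array state, regional means, background, normalization and single arrays left out. The fit with state and regional means together and the fit of lower-state arrays were added after seeing the data.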

Additional observations from a re-analysis of the deposited data

Results flagged for a closer look

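The change of extreme against control rats differed between the sexes on 1092 probes by the interaction term of the limma fit, and on 6 with the array state as a covariate. Values here are the log2 change in females minus that in males. In males the extreme arrays had the lower and the control arrays the higher state, so sex and state cannot be told apart. Of the 85 genes followed by name, 48 differed. Glucocorticoid-induced genes were Sgk1 (1.48), Ddit4 (0.78), Errfi1 (0.98), Plekhf1 (0.93), Nfkbia (1.01), Gadd45g (1.09) and Tsc22d3 (0.58). Ribosomal protein genes were Rpl14 (0.50), Rpl37l1 (4.89), Rpl7 (4.08) and Rpl23 (2.76). The other positive differences were Nfil3 (1.26), Atf3 (0.34), Apold1 (0.67), Grik1 (0.45), Pllp (1.33), Idi1 (0.68), Cyp51 (0.58), Gapdh (0.53), Psma1 (1.01), Psmc3 (0.64), Eif2ak4 (0.54), Hspe1 (1.73), Gadd45gip1 (0.85), Tm9sf4 (0.74) and Hyal2 (0.36). Neuronal and synaptic genes with a negative difference were Ptprn (-0.72), Cacng3 (-1.49), Rims1 (-1.17), Gria3 (-1.21), Nsf (-1.17), Ppp3cb (-1.32), Zbtb18 (-1.38), Map1b (-1.67), Agap2 (-1.68) and Tspan7 (-1.27). The remaining negative differences were Ncor1 (-0.69), Npas2 (-0.56), Mlc1 (-1.52), Cspg5 (-0.93), Pdgfra (-0.57), Slc4a5 (-0.54), Pgm1 (-0.63), Canx (-1.15), Arhgap45 (-0.60), Ccnt1 (-0.52), P4ha1 (-0.36) and Sfxn5 (-1.33).

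In 9 of 170 groups of 5 arrays, 1 array lay far from the others by Dixon's test, which chance gives in about 1 in 20 groups. Extreme female 2, the lower-state array, was lowest for Rpl37l1 (9.54), Rpl7 (10.10) and Rpl23 (11.58). Extreme female 5 was highest for Nr3c2 (8.05). Control female 2 was highest for Apold1 (7.94), control female 4 for Oprd1 (6.99) and control female 1 for Eno1 (9.01). Control female 3 was lowest for Aldoa (12.20) and Map1b (9.02).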

How the results depend on the processing

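The 869 probes called between extreme and control females became 327 with female arrays alone, 480 with the 10 arrays alone, 170 with array state and 4 regional means, and 134 with lower-state arrays only, where 1 extreme array remains and is assumed to vary like the other groups. Without 1 array they ranged from 480 (without control female 2) to 1003, with 504 without extreme female 3. For extreme against minimal females, 17 probes became 10 with array weights, 7 with female arrays alone, 3 with the 10 arrays alone, 26 with the state and 40 with the myelin mean, and 12 to 29 without 1 array. For the sex difference, 1092 probes became 6 with the state, 1647 with 4 regional means and 0 with both, and 759 to 1152 without 1 array. A replicate block by the labels' replicate number gave 867, 20 and 1061 probes for the 3 comparisons. Extreme and control females share only such a number (correlations of -0.511 to -0.141, with 0 of 5 arrays closest to their own number). The block ended the calls of Vgf, Oprd1 and Map1b and added Klf4 (adjusted p = 0.0478). Signs turned for Nr3c2 (-0.16 with the state, -0.21 with state and regional means, -0.18 with lower-state arrays; -0.05 to 0.16 without 1 array), for Rpl37l1 (-0.34, -0.05 and -0.17 under the same 3 settings), for Rpl7 (-0.19, -0.10 and -0.29) and for Rpl23 (-0.08 with the state and -0.05 with lower-state arrays). The cause was not tested. Of 78 printed calls, 33 were lost without some array, 30 of them without extreme female 3.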
